A study of Mus musculus with 18 samples.

Results

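A set of 9 genes that mark microglia and other tissue macrophages were followed through RNA pulled down with endothelial ribosomes: C1qa, C1qb, C1qc, Cx3cr1, Tmem119, Csf1r, P2ry12, Tyrobp and Trem2. They were chosen by symbol as known markers, with earlier results of these data known, and all 9 stood among the 13957 genes listed for brain. The retina table listed 6 of them among 12827 genes, without Tmem119, Tyrobp and Trem2, and the choroid table listed 7 among 7569, without P2ry12 and Trem2. All mice carried Cdh5(PAC)-cre/ERT2+ and NuTRAP+ and were Tam-induced, in the labels' word, so no group lacked the transgenes, and the labels give no age. Cdh5(PAC)-cre/ERT2 is an inducible Cre recombinase under the promoter of the endothelial cadherin gene. NuTRAP is a Cre-dependent reporter that tags ribosomes with GFP, and translating ribosome affinity purification (TRAP) with an antibody against GFP recovers the RNA on those ribosomes. From brain, retina and choroid, 3 Input libraries of tissue RNA taken before the pull-down and 3 Positive libraries of bead-bound RNA were sequenced, 18 in all. The series design text speaks of biological replicates, and the labels do not say how many animals a library holds. The p-values therefore speak of the variation among these libraries, part of which may be technical.

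Microglia are the resident macrophages of brain and retina, and the choroid holds macrophages of its own. As background, they depend on signals through the growth factor receptor Csf1r, carry the fractalkine receptor Cx3cr1 and the nucleotide receptor P2ry12, and sense lipids and debris through Trem2, which signals through the adaptor Tyrobp. They are also a main source in these tissues of C1q, the recognition molecule of the classical complement pathway, which is built from the chains encoded by C1qa, C1qb and C1qc. Tmem119 encodes a membrane protein widely used to tell microglia from other brain cells, and it has also been studied in bone-forming cells.

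On mm10, the files place the C1q chain genes in 1 cluster on the minus strand of chromosome 4, with C1qb (Entrez 12260) at 136880145 to 136886177, C1qc (12262) at 136889802 to 136892914 and C1qa (12259) at 136895916 to 136898844, a span of 18700 bp. P2ry12 (70839) lies on the minus strand of chromosome 3, at 59216271 to 59262831, inside Med12l, which is read from the plus strand. Whether counting used strand is not given in the sources used here, so reads of this pair cannot be told apart with certainty. Cx3cr1 (13051) is on chromosome 9 at 120048683 to 120068296, Tmem119 (231633) on chromosome 5 at 113793729 to 113800352, and Trem2 (83433) on chromosome 17 at 48346401 to 48352276, all with no overlapping gene annotated. Tyrobp (22177), on chromosome 7 at 30413788 to 30417579, lies 133 bp from its neighbour Hcst.

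The 250 bases before the start sites of these genes are shown where they held the same short motif. Any link between the motif and the changes below was not tested. RefSeq promoters (GRCm38.p6) were matched for 5 of the 9 genes. The letters AGGAAGT, a core of the kind bound by ETS-family factors such as PU.1, were found on either strand in 3 of the 5, against 7.69% of 32851 promoters of that length. The match, which reads ACTTCCT where it lies on the opposite strand, is in capitals, and each sequence is given 5′ to 3′ on the gene's own strand.
C1qb, chr4:136886201-136886450, minus strand: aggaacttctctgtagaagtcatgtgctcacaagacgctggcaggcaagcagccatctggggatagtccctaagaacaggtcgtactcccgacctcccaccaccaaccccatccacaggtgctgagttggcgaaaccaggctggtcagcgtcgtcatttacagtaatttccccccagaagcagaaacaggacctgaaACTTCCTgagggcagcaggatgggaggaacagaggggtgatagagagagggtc
C1qc, chr4:136892915-136893164, minus strand: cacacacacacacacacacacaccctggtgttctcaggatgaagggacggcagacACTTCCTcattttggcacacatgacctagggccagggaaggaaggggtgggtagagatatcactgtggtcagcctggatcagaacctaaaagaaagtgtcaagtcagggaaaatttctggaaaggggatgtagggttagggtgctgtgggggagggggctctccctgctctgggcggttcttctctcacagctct
P2ry12, chr3:59262986-59263235, minus strand: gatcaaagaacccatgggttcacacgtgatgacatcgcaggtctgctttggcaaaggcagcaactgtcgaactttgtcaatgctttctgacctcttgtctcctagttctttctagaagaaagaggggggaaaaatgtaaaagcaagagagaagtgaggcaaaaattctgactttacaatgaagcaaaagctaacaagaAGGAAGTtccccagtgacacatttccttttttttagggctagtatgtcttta
The match began 53 bases before the start site in C1qb, 195 in C1qc and 52 in P2ry12, and Cx3cr1 and Trem2 had none in this window. Of the 5 other motifs searched on both strands, the longer form GAGGAAGT, which overlaps the first, stood in C1qc only (2.44% of all promoters), and GAGGAA in C1qb, C1qc and Trem2 (23.3%). TGAGTCA (4.46%), TATAAA (12.4%) and CGCG (33.8%) were in none of the 5. A match describes letters and is not a binding site.

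Listed genes summed to 28128866 to 43219831 estimated counts per library in brain, 12325658 to 36157140 in retina and 713733 to 10031274 in choroid, where totals cover listed genes only. The pull-down recovered the endothelium: 10 of 10 endothelial genes rose in brain and choroid and 9 of 10 in retina, with median log2 fold changes of 5.24, 2.87 and 6.21. Levels below are listed counts scaled to library size by TMM (CPM), and fold changes and adjusted p-values are from edgeR's quasi-likelihood test with Benjamini-Hochberg adjustment over all listed genes and a threshold of 0.05. In bulk RNA, fewer cells of a type and less RNA per cell cannot be told apart.

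In brain, 8 of the 9 genes fell in Positive and Tmem119 rose. The 8 that fell lost between 2.79-fold (Tyrobp) and 3.71-fold (P2ry12), a narrow range, and in each of them all Positive libraries lay below all Input libraries. Over all listed genes 39.7% were called lower and 38.3% higher, and 41.1% had every Positive value below every Input value. The median log2 fold change of the 9 was -1.66, against -0.018 over all genes. All 9 met the authors' minimum raw value of 50 in both fractions, so none was listed through Input alone.

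The C1q chain genes stood highest per length in brain Input. C1qa was at 52.9, 46.1 and 45.7 CPM in the 3 Input libraries and at 9.04, 17.6 and 18.7 in the Positive ones. C1qb was at 57.9, 52.6 and 53.5 CPM in Input and 10.8, 23.6 and 21.9 in Positive, and C1qc at 45.5, 41.7 and 41.3 against 5.65, 15.9 and 15.3. No Positive value reached an Input value for any chain, and the first Positive library was the lowest in each. The log2 fold changes were -1.66 ± 0.22 (SE) for C1qa, -1.53 ± 0.22 for C1qb and -1.79 ± 0.29 for C1qc, with adjusted p of 5.55e-05, 0.000127 and 0.000259. Per kb of exon, the chains took 38% ± 0.74 (C1qa), 42.2% ± 0.61 (C1qb) and 19.7% ± 0.24 (C1qc) of their sum in Input (SD, n = 3). The lengths join all annotated exons (1040 bp for C1qa, 1062 for C1qb and 1780 for C1qc), so the shares depend on that choice. In Positive these shares were 37.6% ± 2.1, 45.4% ± 1.5 and 17.1% ± 2.4, so the proportions differed by a few percentage points while the levels were about 3-fold lower.

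Among the receptors, Csf1r (Entrez 12978, chromosome 18, 61105572 to 61131139) is the receptor for Csf1 and Il34, and the microRNA gene Mir6983 lies within it. Csf1r was at 78.3, 77.3 and 78.5 CPM in brain Input and 11.3, 30.8 and 23.8 in Positive (log2 fold change -1.82 ± 0.27, adjusted p = 0.000124). Cx3cr1 was at 38.7, 40.0 and 37.7 CPM in Input and 8.14, 15.5 and 12.9 in Positive (-1.66 ± 0.19, adjusted p = 1.73e-05). P2ry12 was at 13.9, 14 and 14.4 CPM in Input and 1.93, 4.62 and 4.75 in Positive (-1.89 ± 0.26, adjusted p = 9.02e-05). The Input libraries of these receptors differed by only a few percent, while the Positive ones spread widely, again with the first library lowest.

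Trem2 and its adaptor Tyrobp gave the same picture. Trem2 was at 15, 10.2 and 10.6 CPM in Input and 2.53, 4.10 and 4.38 in Positive, a log2 fold change of -1.69 ± 0.23 (adjusted p = 6.83e-05). Tyrobp was at 12.2, 8.14 and 9.99 CPM in Input and 2.03, 4.49 and 4.25 in Positive, or -1.48 ± 0.27 (adjusted p = 0.000596). Neither gene's groups overlapped, and the ratio of Trem2 to C1qa per length within a library was 0.083 ± 0.011 in Input and 0.084 ± 0.0091 in Positive (SD, n = 3).

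Tmem119 went the other way. It was at 26.3, 19.5 and 22 CPM in the Input libraries and at 45.2, 60.2 and 47.1 in the Positive ones. Every Positive library was above every Input library, as in 40.0% of listed genes. The log2 fold change was 1.18 ± 0.14 (2.26-fold higher, adjusted p = 2.18e-05), and it stayed between 1.04 and 1.30 in all 11 alternative settings. Relative to C1qa per length in the same library, Tmem119 was at 0.226 ± 0.019 in Input and 1.76 ± 0.61 in Positive (SD, n = 3). Fibroblast genes also rose in brain Positive, 8 of 8 with a median log2 of 4.23, among them the collagen genes Col1a1 (4.33 ± 0.17) and Col1a2 (4.39 ± 0.16). They took 0.0154% to 0.0167% of listed counts in Input and 0.199% to 0.285% in Positive, and their part in the Tmem119 result was not tested.

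**Figure D1:**
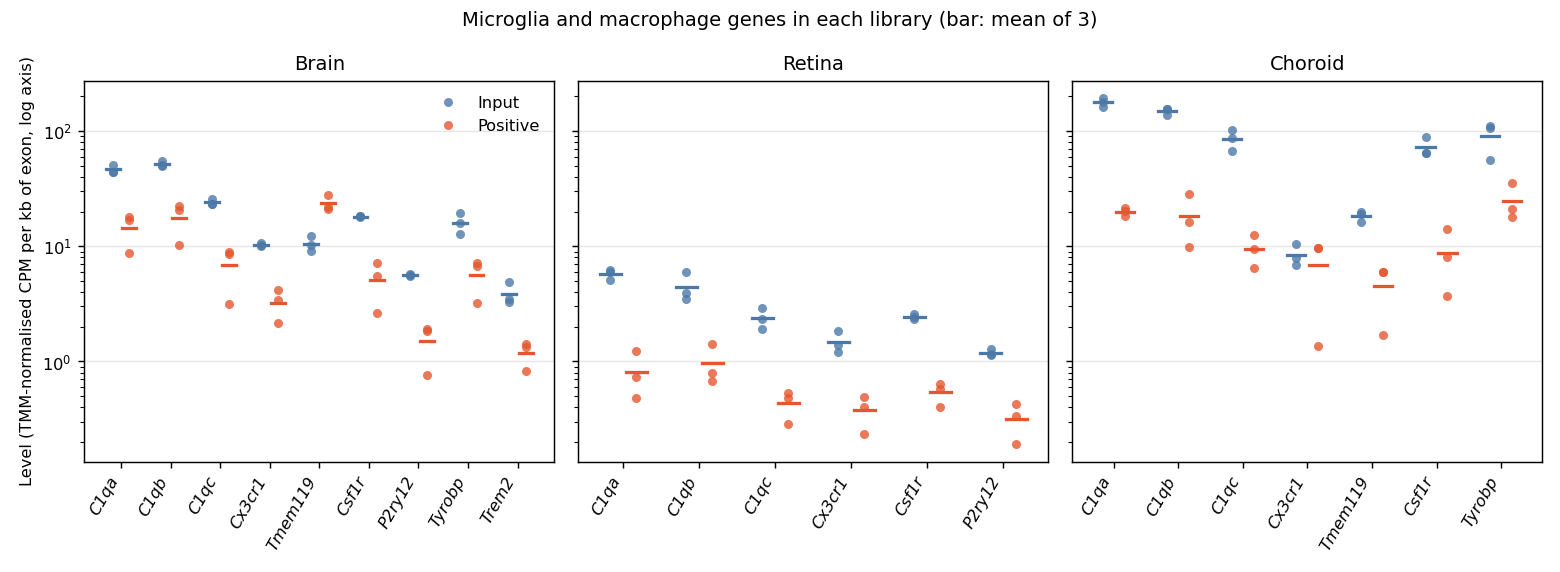
Level of each gene in each library, as TMM-normalised CPM per kb of exon on a log axis, with Input in blue, Positive in red and a bar at the mean of 3 libraries. In brain 8 genes sit lower in Positive and Tmem119 sits higher, and in choroid the points of Cx3cr1 overlap between fractions.

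The first brain Positive library stood apart for these genes. As a percentage of the Input library of the same number, the 8 genes that fell were at 12.4% to 21.0% in replicate 1, at 32.9% to 55.1% in replicate 2 and at 30.4% to 42.5% in replicate 3. Tmem119 was at 172%, 309% and 215%, so it was lowest in the same pair but far above the others. That library held 31111437 listed counts, fewer than the 40112343 and 38326386 of the other Positive ones. The 17 listed pan-macrophage and myeloid genes took 0.00679% of its counts, against 0.00992% and 0.0103% in replicates 2 and 3, while endothelial genes took 0.561%, 0.528% and 0.511% and neuronal genes 0.463%, 0.406% and 0.429%. The part of these values in the results was not tested, and without that library the 8 genes were still called lower and Tmem119 higher.

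**Figure D2:**
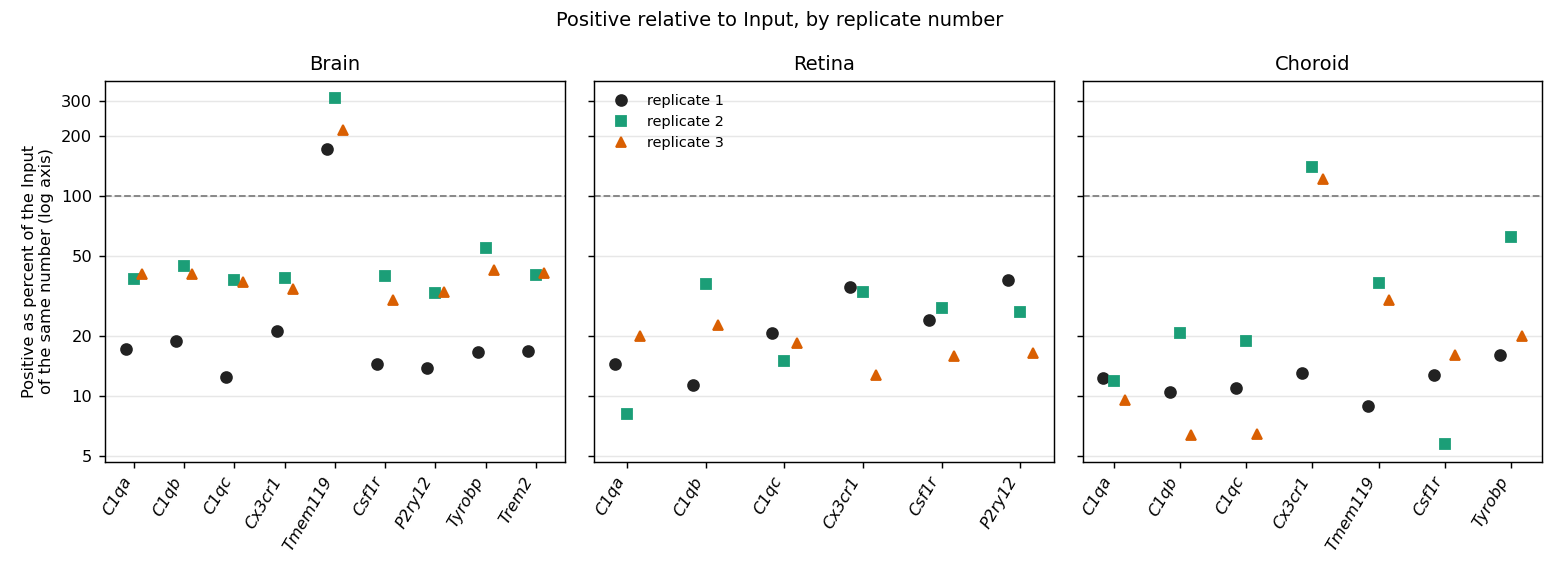
Positive level as a percentage of the Input library with the same replicate number, on a log axis, with a dashed line at 100%. In brain, replicate 1 (circles) is the lowest in every gene, and in choroid Cx3cr1 is at 13% in replicate 1 but at 141% and 122% in the other replicates.

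In retina, all 6 listed genes were lower in Positive, by 3.76-fold (P2ry12) to 6.66-fold (C1qa). These were among the largest decreases in that tissue: of 12827 fold changes ordered from the lowest, C1qa ranked 4, C1qc 7, C1qb 9, Csf1r 10, Cx3cr1 17 and P2ry12 20. Over all genes 10.8% were called lower, and the median log2 was -2.24 for the 6 and -0.034 for all. The 6 met the minimum in Input alone, as 874 genes did, so they were listed because they were high there, and their count is only a description. Of those 874 genes 9.15% were called lower with a median log2 of -0.29, and among them the 6 held ranks 2 to 13 from the lowest.

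C1qa was at 5.27, 6.24 and 6.43 CPM in retina Input and at 0.763, 0.505 and 1.27 in Positive, a log2 fold change of -2.73 ± 0.32 (adjusted p = 0.000616). C1qb was at 6.30, 4.15 and 3.71 CPM against 0.718, 1.52 and 0.836 (-2.29 ± 0.36, adjusted p = 0.00268). C1qc was at 4.13, 3.40 and 5.21 CPM against 0.852, 0.505 and 0.955 (-2.39 ± 0.31, adjusted p = 0.00109). No chain's groups overlapped, though the Positive libraries held only 6 to 32 estimated counts of each chain, and the order of the chains in Positive cannot be read at this depth.

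Csf1r was at 10.5, 10.1 and 11.1 CPM in retina Input and at 2.51, 2.78 and 1.75 in Positive (-2.19 ± 0.22, adjusted p = 0.00029). Cx3cr1 was at 5.27, 4.56 and 6.89 CPM against 1.84, 1.52 and 0.876 (-1.99 ± 0.32, adjusted p = 0.00313). P2ry12 was at 2.83, 3.19 and 2.91 CPM against 1.08, 0.842 and 0.478 (-1.91 ± 0.33, adjusted p = 0.00407). The groups of all these receptors were apart, and all Positive values lay below all Input values in 22.7% of listed genes. Csf1r had the deepest Positive values, 32.7 to 55.8 estimated counts per library. Unlike in brain, no retina Positive library was the lowest in all 6 genes.

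In choroid, 6 of the 7 listed genes were called lower, and Cx3cr1 was not. The C1q chains and Csf1r fell by 7.89-fold to 9.38-fold, and Tyrobp and Tmem119 by 3.99-fold and 4.44-fold. Over all genes 20.2% were called lower, and 27.8% of the 4439 genes that met the minimum in Input alone, as all 7 did, so the count is again a description. The median log2 of the 7 was -2.98, against -0.35 over those 4439 genes.

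C1qa was at 169, 187 and 199.8 CPM in choroid Input and at 20.8, 22.3 and 19.1 in Positive, the tightest of the decreases (-3.17 ± 0.24, adjusted p = 4.43e-06). C1qb was at 165, 146 and 165 CPM against 17.2, 30.2 and 10.4 (-3.17 ± 0.34, adjusted p = 2.09e-05). C1qc was at 153, 119 and 181 CPM against 16.8, 22.3 and 11.6 (-3.23 ± 0.31, adjusted p = 1.16e-05). Averaged over the libraries, the chains fell by nearly equal factors. Their shares of the C1q sum per length were 43.3% ± 3.3, 36.2% ± 2.0 and 20.5% ± 2.7 in Input against 43.3% ± 9.6, 36.6% ± 8.8 and 20% ± 1.1 in Positive (SD, n = 3). The Positive libraries held only 13.5 to 56.6 estimated counts of C1qa, 18 to 47.2 of C1qb and 14 to 46.5 of C1qc. As a percentage of the Input of the same number, C1qa was at 12.3%, 11.9% and 9.57% and C1qb at 10.4%, 20.7% and 6.34%. Differences between the chains in Positive cannot be read at this depth.

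Csf1r was at 277, 279 and 383 CPM in choroid Input and at 35.1, 15.9 and 61.5 in Positive (-2.98 ± 0.35, adjusted p = 4.52e-05). Tyrobp was at 70.7, 35.8 and 66.8 CPM against 11.3, 22.3 and 13.3 (-2.00 ± 0.39, adjusted p = 0.00172). Tmem119 was at 41.1, 34.8 and 42.4 CPM against 3.66, 12.7 and 12.8 (-2.15 ± 0.48, adjusted p = 0.00404). The groups of all 3 genes were apart, as in 26.8% of listed genes, and Tmem119 was here among the genes that fell. Their Positive values rested on few estimated counts per library, 10 to 106 for Csf1r, 13.5 to 31.5 for Tyrobp and 8 to 22 for Tmem119. Fibroblast genes fell as well, 8 of 8 with a median log2 of -2.67, from 0.353% to 0.454% of listed counts in Input to 0.043% to 0.066% in Positive, and their part in the Tmem119 value was not tested.

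Cx3cr1 was the exception in choroid. It was at 39.4, 26.0 and 29.4 CPM in Input and at 5.12, 36.6 and 35.9 in Positive, so the groups overlapped and replicates 2 and 3 were above their own Input. The log2 fold change was -0.38 ± 0.57 (adjusted p = 0.64), and without Positive replicate 1 it was 0.19 (adjusted p = 0.73). The estimated counts behind the Positive values were 14, 23.2 and 61.8 in libraries of 2717264, 713733 and 1679648 listed counts. Per C1qa in the same library and per length, Cx3cr1 was at 0.048 ± 0.015 in Input and at 0.0685, 0.476 and 0.523 in the Positive libraries. Tmem119 and Tyrobp were also lowest in the first choroid Positive library, whereas the C1q chains and Csf1r were not.

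**Figure D3:**
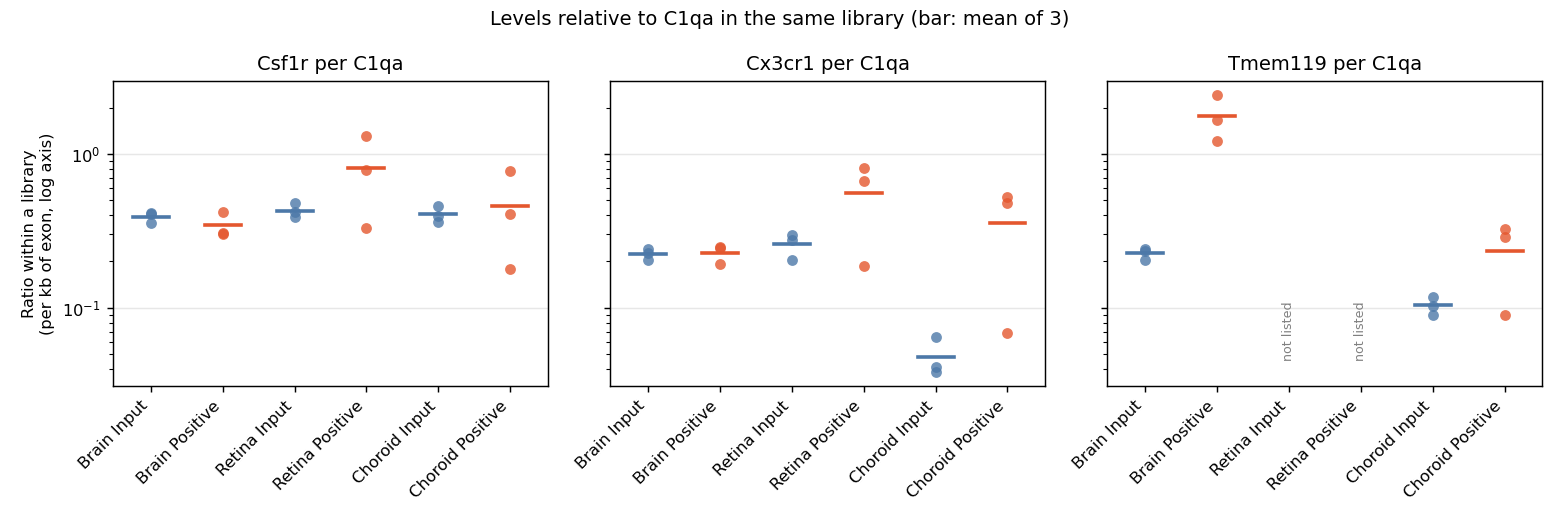
Ratio of Csf1r, Cx3cr1 and Tmem119 to C1qa within each library, per kb of exon on a log axis, with bars at the mean of 3. Csf1r per C1qa lies close to 0.4 in the 3 Input groups, Cx3cr1 per C1qa is lowest in choroid Input and Tmem119 per C1qa is highest in brain Positive.

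The order of the genes per length was similar across tissues in Input. It depends on the joined exon lengths used, which ran from 633 bp for Tyrobp to 3075 for Trem2 and 4317 for Csf1r. In brain, C1qb (51.5 ± 2.7 CPM per kb, SD, n = 3) and C1qa (46.4 ± 3.8) overlapped at the top. C1qc (24.1 ± 1.3) and Csf1r (18.1 ± 0.15) followed, with Tyrobp (16 ± 3.2) overlapping Csf1r. Tmem119 (10.5 ± 1.6) and Cx3cr1 (10.3 ± 0.31) did not differ beyond their spread, and P2ry12 (5.63 ± 0.099) and Trem2 (3.88 ± 0.86) were lowest. In retina Input the levels per kb ran from C1qa (5.75 ± 0.60) and C1qb (4.44 ± 1.3) through Csf1r (2.44 ± 0.12) and C1qc (2.38 ± 0.51), which overlapped, to Cx3cr1 (1.49 ± 0.32) and P2ry12 (1.19 ± 0.075). In choroid Input they ran from C1qa (178 ± 15) and C1qb (149 ± 10) through Tyrobp (91.3 ± 30), C1qc (84.9 ± 18) and Csf1r (72.4 ± 14), which overlapped, to Tmem119 (18.3 ± 1.9) and Cx3cr1 (8.43 ± 1.9). In brain Positive, Tmem119 (23.6 ± 3.8) moved to the head of the order, above the means of C1qb (17.7 ± 6.5) and C1qa (14.5 ± 5.1), though its lowest library overlapped the highest of C1qb.

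Between tissues, Input levels of these genes were lowest in retina. All 6 genes listed in both tables were lower in retina Input than in brain Input, by 4.71-fold (P2ry12) to 11.3-fold (C1qb), where 37.8% of genes were called lower. In Positive all 6 were lower again, by 4.68-fold (P2ry12) to 19.2-fold (C1qb), against 36.4% of genes. Choroid Input was above retina Input in all 5 shared genes, by 26.8-fold to 32.3-fold for the C1q chains and Csf1r but by 5.14-fold for Cx3cr1, where 35.5% of genes were called higher. In Positive the same 5 were higher in choroid by 16-fold to 21.5-fold, against 30.5% of genes, and the lowest of these, Cx3cr1 (log2 4.00 ± 0.60), was 4.62 without choroid Positive replicate 1 and 3.41 without replicate 3. The tables were filtered separately, so these levels rest on the genes that each pair of tables shares.

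Choroid and brain differed gene by gene. In Input, 5 of 7 genes were higher in choroid: Tyrobp (log2 2.26 ± 0.33), Csf1r (1.73 ± 0.33), C1qa (1.66 ± 0.22), C1qc (1.55 ± 0.30) and C1qb (1.26 ± 0.26), where 33.9% of genes were called higher. Tmem119 (0.54 ± 0.25, adjusted p = 0.0716) and Cx3cr1 (-0.56 ± 0.41, adjusted p = 0.241) did not pass, where 33.4% of genes were called lower. Tmem119 passed as higher with DESeq2 size factors (0.60, adjusted p = 0.0482) and by the DESeq2 Wald test (0.59, adjusted p = 0.0263). It also passed with some single libraries left out, such as choroid Positive replicate 1 (0.54, adjusted p = 0.0113). Without that library Cx3cr1 passed as lower (-0.56, adjusted p = 0.0394). Cx3cr1 per C1qa was accordingly 0.224 ± 0.019 in brain Input, 0.259 ± 0.050 in retina Input and 0.048 ± 0.015 in choroid Input (SD, n = 3), with no overlap of choroid with either. Csf1r per C1qa did not separate the tissues, at 0.391 ± 0.030, 0.428 ± 0.047 and 0.405 ± 0.052. In Positive, Tyrobp was higher in choroid (2.01 ± 0.42, adjusted p = 0.0011), as 28.3% of genes were, and Tmem119 lower (-2.56 ± 0.35, adjusted p = 2.7e-05), as 26.4% were. Tmem119 was at -1.94 without choroid Positive replicate 1. Csf1r (0.92 ± 0.37, adjusted p = 0.0505), Cx3cr1 (0.94 ± 0.49, adjusted p = 0.12), C1qa (0.47 ± 0.27), C1qc (0.40 ± 0.40) and C1qb (-0.099 ± 0.34) did not pass in Positive. Csf1r was at the border. It passed in the fit of 18 libraries (0.81, adjusted p = 0.0482), with DESeq2 size factors (0.96, adjusted p = 0.0413) and by the DESeq2 Wald test (0.90, adjusted p = 0.0378).

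Whether the pull-down ratio itself differed between tissues was tested as an interaction. Tmem119 had a log2 difference of -3.11 ± 0.43 in Positive over Input between choroid and brain (adjusted p = 4.57e-05, and -2.49 without choroid Positive replicate 1). C1qb (-1.36 ± 0.43, adjusted p = 0.0169) and C1qa (-1.19 ± 0.34, adjusted p = 0.0106) also fell further in choroid, and 25.7% of genes were called in that direction. All 3 genes met the authors' minimum in choroid through Input alone, which selects for a lower Positive there, so these differences are descriptions. The C1qb call was lost without choroid Positive replicate 3 (-1.07, adjusted p = 0.065). C1qc (-1.15 ± 0.49, adjusted p = 0.0675), Csf1r (-0.81 ± 0.49), Tyrobp (-0.26 ± 0.52) and Cx3cr1 (1.51 ± 0.64, adjusted p = 0.0664) did not pass, and 22.4% of genes were called higher. Leaving out 1 library changed some of these: without brain Positive replicate 1, C1qc (-1.48) and Csf1r (-1.13) passed as well, and without choroid Positive replicate 1, Cx3cr1 passed at 2.19 (adjusted p = 0.000456).

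Between retina and brain, 0 of 6 genes passed the same test in edgeR, 1 (C1qa) at an unadjusted p under 0.05 and 1 (C1qa) by the DESeq2 Wald test, where 20% of genes were called lower and 28.9% higher. The differences ran from -1.0 ± 0.42 for C1qa (adjusted p = 0.0678) to 0.011 ± 0.47 for P2ry12. Their SEs were 0.38 to 0.54, and a p above the threshold does not show that the ratios were equal. Without brain Positive replicate 1, the chains C1qa (-1.26), C1qb (-1.03) and C1qc (-0.87) and Csf1r (-0.66) passed as lower in retina. All 6 genes met the authors' minimum in retina through Input alone, which selects for a lower Positive there, so these differences are descriptions. Between choroid and retina, 0 of 5 passed in edgeR and by the DESeq2 Wald test, and 1 (Cx3cr1, 1.64 ± 0.75, adjusted p = 0.112) had an unadjusted p under 0.05, with 22.3% of genes called lower and 9.49% higher. Cx3cr1 passed without choroid Positive replicate 1 (2.25, adjusted p = 0.00353). The 5 genes met the minimum through Input alone in both of these tissues, so these values are descriptions too.

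**Figure D4:**
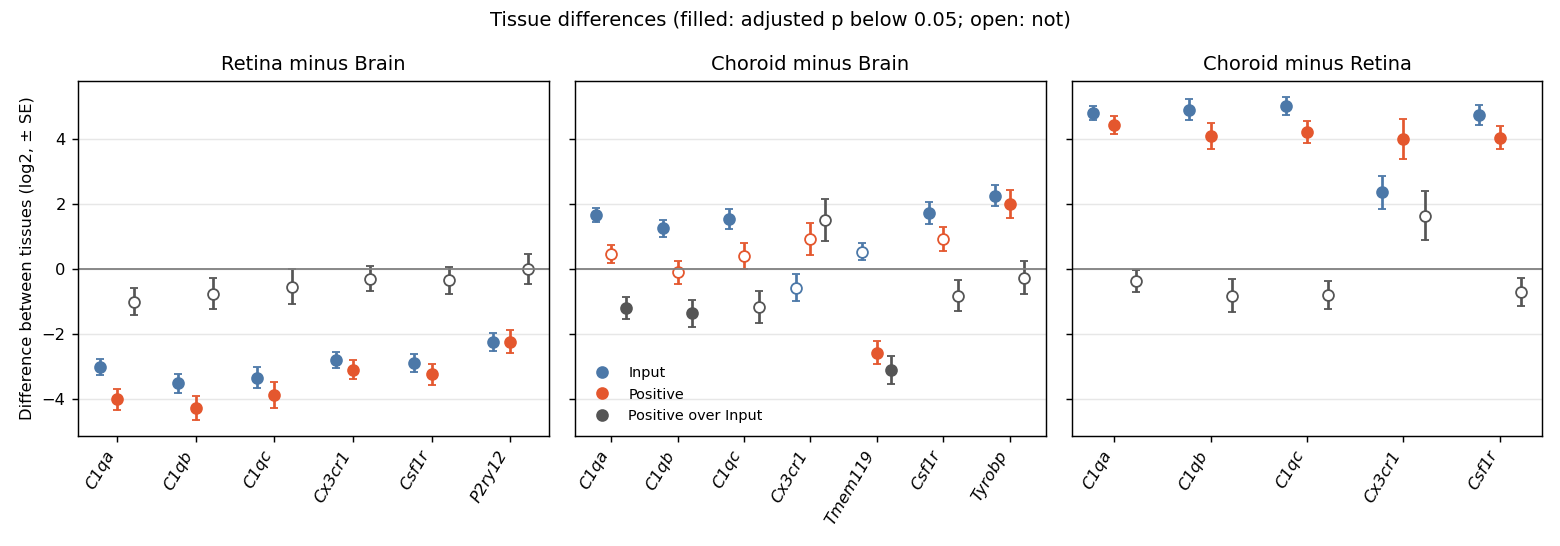
Log2 difference between tissues (± SE of the fit) for each shared gene in Input (blue), in Positive (red) and in Positive over Input (grey), filled where the adjusted p was below 0.05. In the pairs with retina, Input and Positive have the same sign in every gene, though Cx3cr1 between choroid and retina is at 2.36 and 4.00. Between choroid and brain, Tmem119 lies lowest in Positive and in Positive over Input. Cx3cr1 alone lies above 0 there in Positive over Input (1.51, not passing).

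Other genes of the same cells were read from lists of known markers, and the counts below are descriptions. In retina 3352 of 12827 genes passed in either direction, 1391 of them lower. The share of all genes called higher in choroid is not given here, so counts of genes that rose there have no background beside them. Of 12 other homeostatic microglia genes listed in brain, 9 fell and 2 rose (median log2 -1.57). The purinergic receptor gene P2ry13 (-1.89 ± 0.28), a neighbour of P2ry12, and Gpr34 (-1.66 ± 0.20) fell, and Olfml3, which encodes a secreted protein, rose (2.43 ± 0.14), as did Golm1 (0.33). In retina 4 of the 12 were listed, with Selplg lower (-1.83 ± 0.30) and Golm1 higher (2.37 ± 0.31), and in choroid 5 were, with 3 lower, such as Fcrls (-3.56 ± 0.63) and Olfml3 (-3.32 ± 0.36), and Golm1 higher. Olfml3 thus rose in brain and fell in choroid, the same signs as Tmem119.

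Of 17 pan-macrophage and myeloid genes in brain, 16 fell and Cd14, a co-receptor for lipopolysaccharide, rose (0.99), with a median log2 of -1.59. Cd68, a lysosomal protein gene, fell most (-2.10 ± 0.23), then Ptprc (-2.05 ± 0.23), which encodes CD45, and Itgam (-1.87 ± 0.26) and Aif1 (-1.22 ± 0.21) fell as well. In choroid 11 of 12 fell, led by Adgre1, which encodes F4/80 (-4.04 ± 0.61), and Lyz2, a lysozyme gene (-3.47 ± 0.85), and in retina 1 of 4 did (Ctss, a cathepsin gene, -2.44 ± 0.42). Itgam did not pass there (2.63 CPM in Input, 1.19 in Positive, adjusted p = 0.168), nor did Laptm5 (4.82 and 6.83 CPM).

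Perivascular and border macrophage genes were split. Mrc1, the mannose receptor gene, fell in brain (-1.52 ± 0.24) and choroid (-2.90 ± 0.32), and Cd163 fell in brain (-1.23 ± 0.26) and Ms4a7 in choroid (-3.43 ± 0.37). Stab1, a scavenger receptor gene of macrophages and sinusoidal endothelium, rose in brain (1.15), retina (3.82 ± 0.33) and choroid (1.75). Altogether, 3 of 5 listed genes fell and 2 rose in brain, where Cbr2 (0.67) was the other that rose, and 3 of 4 fell in choroid. Genes linked to activated microglia moved apart by tissue: 7 of 10 rose in brain, such as Spp1 (2.68 ± 0.18), Cd63 (1.44 ± 0.10) and Apoe (0.66 ± 0.09), while Lpl fell (-1.20 ± 0.20). In choroid 10 of 11 fell, such as Lgals3 (-3.42 ± 0.53), Axl (-2.93 ± 0.37), Apoe (-2.38 ± 0.28) and Lpl (-1.52 ± 0.39), and in retina 1 of 9 fell (Spp1, -1.81 ± 0.16) and 1 rose (Gpnmb, 0.97 ± 0.27). Many of these activation genes are also expressed by other cell types.

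The partners of C1q went against its chains in brain. Of 12 listed complement partners and regulators 10 rose and 0 fell, with a median log2 of 2.62, among them the C1 protease genes C1ra (2.62 ± 0.14) and C1s (2.14 ± 0.21), Serping1, which encodes their inhibitor (4.28 ± 0.14), and Cd93, an endothelial receptor gene (5.03 ± 0.10). C1ra went from 2.29 ± 0.20 to 14.2 ± 1.3 CPM and C1s from 1.13 ± 0.24 to 5.09 ± 0.60 (SD, n = 3). In choroid C1ra (-1.26 ± 0.30) and C1s (-3.14 ± 0.44) fell with the chains, as did Clu (-2.74 ± 0.28), and 6 of 11 genes fell while Cd93 and Cr1l rose. In retina 3 of 8 rose, such as Cd93 (6.23 ± 0.39), and C4b (-0.27 ± 0.46) and Serping1 (-0.57 ± 0.28) did not pass.

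Of the genes that act downstream of Trem2 and Tyrobp, the kinase gene Syk (-1.20 ± 0.19) and the exchange factor gene Vav1 (-1.60 ± 0.27) fell in brain with their receptor. The phospholipase gene Plcg2 rose in brain (1.64 ± 0.14) and retina (3.10 ± 0.30), and Lyn rose in brain (1.46 ± 0.14) and retina (3.67 ± 0.42). The phosphatase gene Inpp5d rose in brain (0.47 ± 0.12), retina (2.01 ± 0.27) and choroid (2.06 ± 0.31), and Syk did not pass in choroid (-0.92 ± 0.41). In brain 4 of 9 fell and 3 rose, in retina 3 of 5 rose, and in choroid 1 of 3 rose.

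Most ligands and partners of the receptors rose in Positive, opposite to the receptors. In brain 9 of 10 rose and 1 fell. Csf1, a ligand of Csf1r, went from 25.9 ± 1.5 to 77.8 ± 5.3 CPM (1.59 ± 0.08), and its other ligand Il34 rose by 0.92 ± 0.10. The gene that fell was Cx3cl1, the ligand of Cx3cr1 (-0.61), which rose in choroid from 220.4 ± 24 to 1179 ± 220 CPM (2.42 ± 0.22) and in retina by 0.67. Tgfb1 (3.41 ± 0.15) and its receptor gene Tgfbr2 (3.93 ± 0.07), which belong to a pathway that keeps microglia in their resting identity, rose in brain, and Tgfbr2 rose in retina (4.94 ± 0.35) with Entpd1, an enzyme gene of nucleotide breakdown (5.67 ± 0.40). In retina 7 of 10 rose and in choroid 6 of 9, where Csf1 did not pass (0.76 ± 0.29, adjusted p = 0.0576) and Tgfb1 rose (2.31 ± 0.23).

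**Figure D5:**
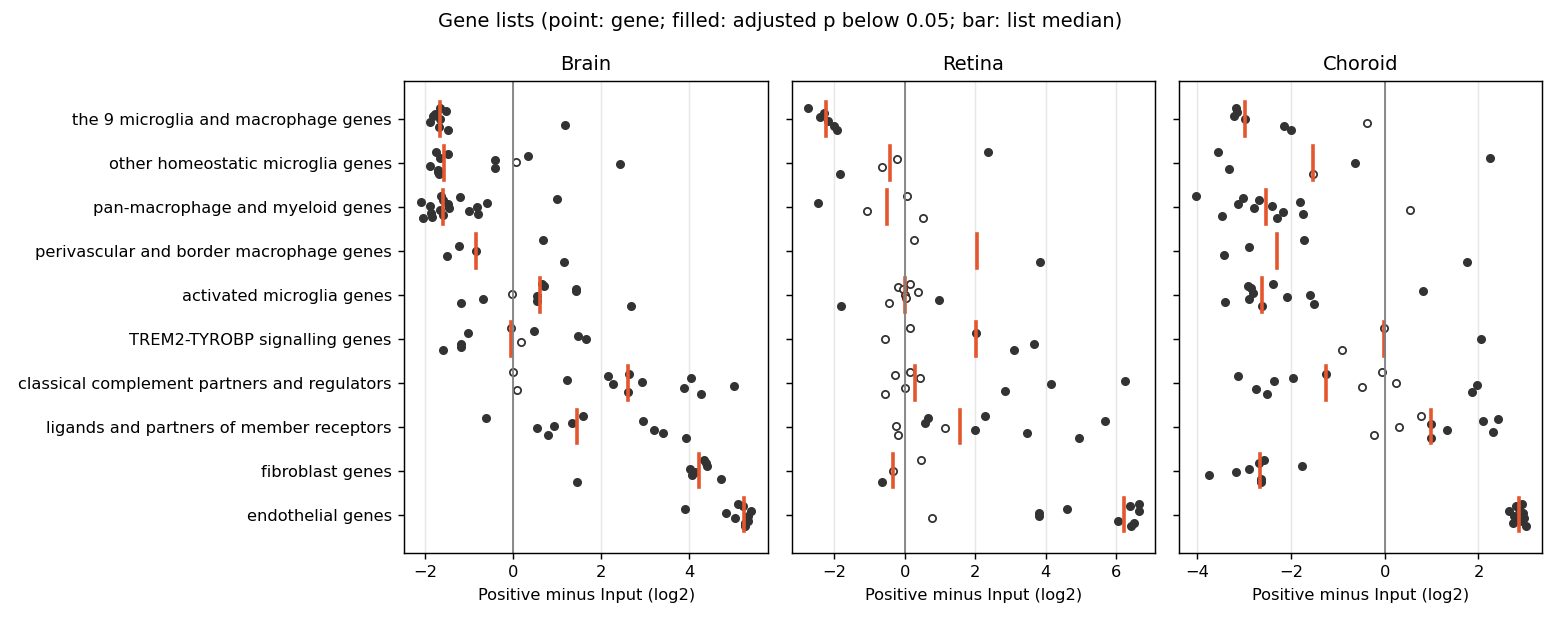
Log2 fold change of Positive over Input for each listed gene of 10 gene lists in the 3 tissues, filled where the adjusted p was below 0.05, with a red bar at the list's median. The 9 microglia and macrophage genes lie left of 0 apart from Tmem119 in brain, while endothelial genes lie right of 0 in each tissue.

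Markers of other cells in the same libraries give the scale of the decreases. In brain, 10 of 10 neuronal genes fell with a median log2 of -1.20, 9 of 10 oligodendrocyte genes with -2.14 and 8 of 10 astrocyte genes with -0.70. The decrease of the macrophage genes therefore lay between those of neuronal and oligodendrocyte genes. In retina, neuronal, photoreceptor and astrocyte or Mueller glia genes had medians of -0.28, -0.18 and -0.14, with 5, 4 and 3 of them called lower, against -2.24 for the 6 genes. The cone opsin genes Opn1mw (-3.08 ± 0.16) and Opn1sw (-2.10 ± 0.15) fell by amounts like those of the 6 genes or larger, and pigment epithelium genes had a median of -1.37 with 4 of 7 lower and 1 higher. In choroid, pigment epithelium genes had a median of -3.67 and astrocyte or Mueller glia genes of -2.22. Summed over the listed genes, the macrophage genes took 0.0317% to 0.0353% of counts in brain Input and 0.00935% to 0.0171% in Positive. In retina they took 0.00317% to 0.0037% and 0.000592% to 0.000777%, and in choroid 0.0835% to 0.11% and 0.0111% to 0.0168%. These sums cover the 9, 6 and 7 genes listed in brain, retina and choroid. The brain sum includes Tmem119, which rose from a mean of 22.6 to 50.8 CPM. Of 14 genes of other leukocytes, brain listed Cd4, which fell (-1.54 ± 0.15), and the B cell gene Cd79a, which rose (4.65 ± 0.39), choroid listed Cd4 alone, which fell (-3.15 ± 0.65), and retina none.

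The genes whose log2 levels followed each member most closely were taken over the 12 brain and retina libraries, which share tissue and fraction differences. Csf1r and Cx3cr1 were most like Mpeg1, a perforin-like gene of macrophages (Pearson r = 0.993 and 0.99), then Selplg (0.987) and Ctss (0.98) for Csf1r and Bdh1 (0.981) and Selplg (0.979) for Cx3cr1. C1qa was most like Kcnmb4 (0.987), Hopx (0.978) and Selplg (0.975), C1qc like Kcnmb4 (0.988), Selplg (0.986) and Tmem121 (0.982), and C1qb like Lrrc3b (0.979), Mpeg1 (0.976) and Camk2n1 (0.975). P2ry12 was most like Fbxl19 (0.987), Ctss (0.983) and Slc5a3 (0.981). Over the 12 brain and choroid libraries, a choice made after values were seen, Tyrobp was most like Cd68 (0.976), Ptprc (0.969) and Ints4 (0.964). Tmem119 was there closest to Hsd17b10 (0.944), Ddc (0.941) and Apoa1bp (0.941), none of them in the macrophage lists.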

How the data were processed

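RNA was sequenced from 6 groups of 3 libraries. Per the labels, the Input was set aside from the supernatant before the pull-down, so libraries of 1 tissue and number share a homogenate. To check that pairing, the correlation between Input and Positive of the same number, after each group's mean was taken off, was 0.224, 0.164 and 0.215 in brain, 0.123, 0.297 and -0.028 in retina and 0.193, 0.210 and 0.140 in choroid. Unlike numbers reached at most 0.033 in brain and 0.069 in choroid. In retina, Input 1 was closer to Positive 3 (0.178) and Input 3 to Positive 2 (0.082), so the check did not bear out those pairs. The authors deposited 1 table per tissue with raw values, which are expected counts since many are not whole, and with log2 values that they had normalized, which served only to recover the authors' factors (within 0.001 for 99.98% or more of values). Per the file headers, a listed gene had a raw value of at least 50 in all libraries of at least 1 fraction. Per the submitters' processing notes the build was mm10 and DESeq was used. Aligner, counter and use of strand were not given in the sources used here.

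Counts were rounded and fitted with edgeR 4.0.16 in R 4.3.3 (TMM, quasi-likelihood F test, and filterByExpr at 10 counts, under which every gene stayed), per tissue and per pair of tissues over genes listed in both. Alternatives were DESeq2 1.42.0 size factors and Wald test, the authors' factors, no filter, a replicate block, each library left out and a fit of all 18 libraries. The code was tested on simulated data. SE is the log2 fold change over the square root of F, and levels per kb use the joined length of all GENCODE exons within the files' gene bounds. All 9 genes are named, and of each list the first 2 measured, the 2 with the largest passing change and genes against most of the list, with a few more chosen after their values were seen. Likeness is Pearson's r of log2 CPM (prior count 1). Members and lists were chosen with earlier results of these data known. Genes under the minimum were not analysed here. Some genes that the rule names are not reported here.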

Additional observations from a re-analysis of the deposited data

Results flagged for a closer look

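A test of the difference between tissues called 3 of 7 genes, in the ratio of Positive to Input between choroid and brain. All 3 were lower in that ratio in choroid, where 25.7% of all genes were called lower and 22.4% higher. Tmem119 stood at a log2 difference of -3.11, being 2.26-fold higher in Positive in brain and 4.44-fold lower in choroid. C1qb stood at -1.36 and C1qa at -1.19, both lower in Positive in either tissue and further so in choroid, and C1qb did not pass without choroid Positive replicate 3 (-1.07, adjusted p = 0.065). All 3 genes were listed in choroid through Input alone, which selects for a lower Positive there.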

How the results depend on the processing

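In brain, retina and choroid, each member's call in Positive against Input stayed the same in every alternative run. With the replicate block, which pairs Input and Positive of the same number, the counts called lower were 8, 6 and 6, and no member's call changed in any comparison fitted with it. Counts of members moved in comparisons between tissues. In the fit of 18 libraries, 1 gene was lower in retina against brain in Positive over Input, 0 were lower in choroid against brain in Positive (Tmem119 is not in that fit), and 1 was higher in choroid against retina in Positive over Input. By the DESeq2 Wald test these were 1 lower in retina against brain in Positive over Input, 3 higher in choroid against brain in Positive and 1 higher in Positive over Input, and DESeq2 size factors gave 2 higher in Positive. Leaving out 1 library gave 0 to 4 lower in retina against brain in Positive over Input. For choroid against brain it gave 0 to 1 lower in Input, 1 to 2 higher in Positive, and 2 to 5 lower and 0 to 1 higher in Positive over Input. For choroid against retina it gave 0 to 1 lower and 0 to 1 higher in Positive over Input.

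Values that changed sign had not passed the test. Where leaving out 1 library turned a log2 value, its range was -0.873 to 0.192 for Cx3cr1 in choroid, the latter without choroid Positive replicate 1. In Positive over Input between retina and brain it was -0.341 to 0.432 for P2ry12, -0.598 to 0.109 for Cx3cr1 and -0.656 to 0.0711 for Csf1r, and P2ry12 was -0.0307 with DESeq2 size factors and -0.0227 by the Wald test. The range was -0.475 to 0.192 for C1qb in choroid against brain Positive, and -0.559 to 0.0138 for C1qa in Positive over Input between choroid and retina. Of the genes past the threshold in retina, 3352 became 2048 and 1836 without Input replicate 1 and 2. Between retina and brain, 9398, 9394 and 6072 genes in Input, Positive and Positive over Input became 4582, 4638 and 2170 in the fit of 18 libraries, which tested 7270 genes instead of 12438. The causes of these changes were not tested. Shallow choroid Positive libraries, and low levels of these genes in retina Positive, limit what can be told there.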
